A study of Mus musculus with 14 samples.

Results

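The extracellular matrix is the protein scaffold that surrounds cells, and 134 of the 12235 genes listed in the count table of sCAFs belong to the families examined here. The members were taken by symbol: collagens, laminins, matrix metalloproteases (Mmp), tissue inhibitors of metalloproteases (Timp), Adamts and Adamts-like genes, lysyl oxidases, fibulins, thrombospondins, serpins, Sparc and Sparcl1, insulin-like growth factor (IGF) binding proteins, and the single genes Fn1, Ecm1, Tgm2, Bgn, Dcn, Lum, Postn and Tnc. A symbol rule takes in some genes that are not matrix genes. Col4a3bp encodes a ceramide transfer protein, and several clade B serpins act inside cells.

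The sCAFs are a subset of cancer-associated fibroblasts, and 3 libraries came from primary 4T1 tumours in BALB/c females. The 4T1 line derives from a mammary carcinoma of a BALB/c mouse and stands for triple-negative disease. Mice aged 8 weeks received 100000 4T1 cells carrying green fluorescent protein (GFP) in the lower left mammary fat pad, so the host animals kept their own immune system. Tumours were digested with collagenase A at 3 mg/ml and DNase at 70 units/ml for 20 min at 37 °C, and sCAFs were sorted as cells without EPCAM, GFP, CD45, CD31 or PDPN on their surface. Natural killer (NK) cells were sorted from tumours of the same kind (4 samples), from spleens of tumour-bearing mice (4 samples) and from spleens of healthy mice (3 samples). Tumour-bearing and healthy mice were all BALB/c, and the healthy mice were also 8 weeks old. NK cells were taken as NKp46+ CD45+ cells without GFP, EPCAM, CD3, CD31 and CD14. Spleens were crushed, and red cells were lysed for 5 min on ice, with no collagenase step. The series states that the sCAFs were sequenced for genes that could bear on the movement of NK cells and on their retention in stroma. No genetic change of the mice is given in the sources used here. The series calls the samples independent replicates, but nothing says which animals they came from or whether animals were pooled, so the spread between samples may be partly technical.

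Collagens, laminins and fibronectin form the fibres and sheets of the matrix, and each chain is secreted in assemblies with other chains. Lysyl oxidases and transglutaminase 2 cross-link these proteins, metalloproteases of the MMP and ADAMTS families cut them, and TIMPs and serpins inhibit proteases. In solid tumours, fibroblasts are known as a main source of fibrillar collagen, while basement membrane chains also come from pericytes, endothelial and epithelial cells.

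Regulatory sequence is shown first for members on which the results below turn. RefSeq holds a promoter window for 91 of the 134 members in mouse build GRCm38.p6, and the 250 bases upstream of the annotated start were searched on both strands for the TATA box (TATAAA), the CCAAT box (CCAAT), the GC box (GGGCGG) and the AP-1 element (TGANTCA). Capitals mark a match. For the 6 windows printed by gene, only bases outside annotated exons are shown, 5′ to 3′ on the gene's strand. The first pair belongs to the most abundant IGF binding proteins of the sCAFs, which differed in how evenly the libraries carried them. Igfbp4 (chr11:99040994-99041243, plus strand) had 1 TATAAA match, and Igfbp7 (chr5:77408046-77408295, minus strand) had 4 GGGCGG matches and no TATAAA.
Igfbp4: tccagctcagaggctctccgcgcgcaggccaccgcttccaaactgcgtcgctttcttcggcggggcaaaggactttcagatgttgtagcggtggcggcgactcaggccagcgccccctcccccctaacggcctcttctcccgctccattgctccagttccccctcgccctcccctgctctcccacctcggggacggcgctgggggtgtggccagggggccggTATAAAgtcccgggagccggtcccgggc
Igfbp7: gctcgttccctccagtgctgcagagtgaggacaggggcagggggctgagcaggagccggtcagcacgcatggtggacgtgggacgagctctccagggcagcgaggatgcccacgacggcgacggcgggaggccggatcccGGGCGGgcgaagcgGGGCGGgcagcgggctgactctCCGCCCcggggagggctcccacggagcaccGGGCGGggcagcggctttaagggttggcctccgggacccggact
The next 3 belong to the chains of collagen VI, which did not share a pattern over the libraries. Col6a1 (chr10:76726169-76726294, minus strand, 126 bases) and Col6a3 (chr1:90843972-90844221, minus strand) had no match in the bases shown, and Col6a2 (chr10:76623631-76623880, minus strand) had 1 GGGCGG match.
Col6a1: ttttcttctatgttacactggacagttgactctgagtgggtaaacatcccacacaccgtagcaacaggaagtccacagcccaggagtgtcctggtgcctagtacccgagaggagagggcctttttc
Col6a2: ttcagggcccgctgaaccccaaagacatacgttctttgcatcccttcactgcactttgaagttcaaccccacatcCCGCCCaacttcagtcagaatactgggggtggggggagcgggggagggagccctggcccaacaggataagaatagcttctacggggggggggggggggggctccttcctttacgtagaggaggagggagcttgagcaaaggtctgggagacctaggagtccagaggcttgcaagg
Col6a3: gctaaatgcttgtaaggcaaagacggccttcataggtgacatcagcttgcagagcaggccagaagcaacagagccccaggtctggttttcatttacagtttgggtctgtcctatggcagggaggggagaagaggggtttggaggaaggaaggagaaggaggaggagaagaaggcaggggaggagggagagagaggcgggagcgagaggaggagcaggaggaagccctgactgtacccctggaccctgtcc
The window of Mmp3 (chr9:7445572-7445821, plus strand), a protease gene that was high in 2 of the 3 libraries, held 1 TATAAA and 1 TGANTCA match.
Mmp3: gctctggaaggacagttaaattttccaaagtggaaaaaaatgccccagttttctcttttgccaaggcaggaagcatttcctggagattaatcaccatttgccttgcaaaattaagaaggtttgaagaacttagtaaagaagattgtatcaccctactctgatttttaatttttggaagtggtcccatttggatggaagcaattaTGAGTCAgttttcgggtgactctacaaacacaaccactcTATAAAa
Col4a1 and Col4a2, the partner chains of collagen IV, start back to back on opposite strands of chromosome 8. The annotated genes overlap by 22 bases at these starts (chr8:11312805-11312826), and the overlap, which lies inside both gene models, is given on the plus strand and holds 1 GGGCGG match.
Col4a1 and Col4a2: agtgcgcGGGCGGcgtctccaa
Over the 70 windows of the 61 members that had a window and lay above the detection floor in all 3 sCAF libraries, 54.3% held GGGCGG, 27.1% CCAAT, 21.4% TATAAA and 11.4% TGANTCA. Over all 32851 windows of the table these shares were 32.7%, 33.8%, 12.4% and 6.75%. Those windows were not limited to genes detected in sCAFs, so the shares do not compare like with like. Whether detected genes in general differ in the same way was not tested. A match describes the letters of a window and is not a measured binding site.

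Levels are given as counts per 1e+06 counts (CPM), a gene's count divided by the library's total over listed genes. These are 3′ end counts, which do not scale with transcript length, so CPM values of different genes are set side by side without a length correction. The sCAF libraries had totals of 2230475, 1318067 and 1331861 counts for replicates 1, 2 and 3. The detection floor, taken as the 3 counts that an observed 0 still allows, lay between 1.35 and 2.28 CPM in sCAFs and between 1.53 and 5.36 CPM in the NK libraries, which had totals of 559688 to 1966963. Intervals and floors cover counting error only. In bulk samples such as these, fewer cells of a type and less RNA per cell cannot be told apart.

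The fibroblast label was checked on 12 marker genes, of which 9 lay above the floor in all 3 sCAF libraries. Col1a1, Col1a2, Col3a1, Dcn and Lum of this list are themselves matrix members, so they are no separate check on the label. The list summed to 3154, 3246 and 2773 CPM in replicates 1, 2 and 3, and S100a4, which other cell types also express, gave 2647, 2222 and 1388 CPM of that. Pdgfra was at 61.4, 40.2 and 84.8 CPM, whereas Fap, Lum and Pdpn lay at or near the floor, between 0.448 and 3.75 CPM. The sort removed PDPN+ and EPCAM+ cells. Markers of carcinoma or epithelial cells were higher in sum than the fibroblast list in each library: 3437, 4492 and 3666 CPM over 11 genes. Krt18 was at 2300, 2993 and 2250 CPM, Krt8 at 826, 763 and 691 CPM, and Krt7 and Cldn4 at means of 283 and 207 CPM. Epcam was lower, at 5.83, 27.3 and 24.8 CPM, and Krt5 was at 0. The data thus hold epithelial keratins beside fibroblast genes, so the values below are those of the sCAF libraries as sorted. Endothelial (4 of 7 listed), neutrophil (5 of 6), T cell (1 of 5) and leukocyte (Ptprc) markers summed to at most 6.83 CPM in any library. The lists were thus checked only in part, and no gene of the NK cell and dendritic cell lists was listed for sCAFs. The 7 macrophage genes listed, of 9, summed to 104, 79.7 and 170 CPM. Replicate 3 stood apart in the sum of pericyte or smooth muscle markers: all 8 were above the floor, and they summed to 109, 152 and 588 CPM in replicates 1, 2 and 3. Rgs5 was at 11.2, 22.8 and 165 CPM. Acta2, of the same list, did not rise and lay near the floor, at 3.14, 3.79 and 3.00 CPM. Replicates correlated across genes with r between 0.955 and 0.973 (log2(CPM + 1); genes are not independent replicates).

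Matrix members took 1.83% of all counts in replicate 1, 2.03% in replicate 2 and 2.55% in replicate 3, a mean of 2.14% ± 0.37 (SD, n = 3), or 1.93% without replicate 3. The exact Clopper-Pearson intervals at 95% were 1.81 to 1.85%, 2.01 to 2.06% and 2.52 to 2.58%, so the libraries differed by more than counting error. A few genes made up most of this. The 5 highest, Fn1, Igfbp4, Igfbp7, Timp2 and Sparc, held 46.9% of the members' counts and the 10 highest held 62.7%. Of the 134 members, 87 were above the floor in all 3 libraries, 13 in some, 20 had counts but never passed it, and 14 had no count. The members with no count included the collagen IV chains Col4a3 and Col4a4, the laminin chain Lama1, the fibrillar collagen Col11a1 and the protease gene Mmp8. The plot of the highest members by library shows that the leading genes spanned more than an order of magnitude.

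**Figure D1:**
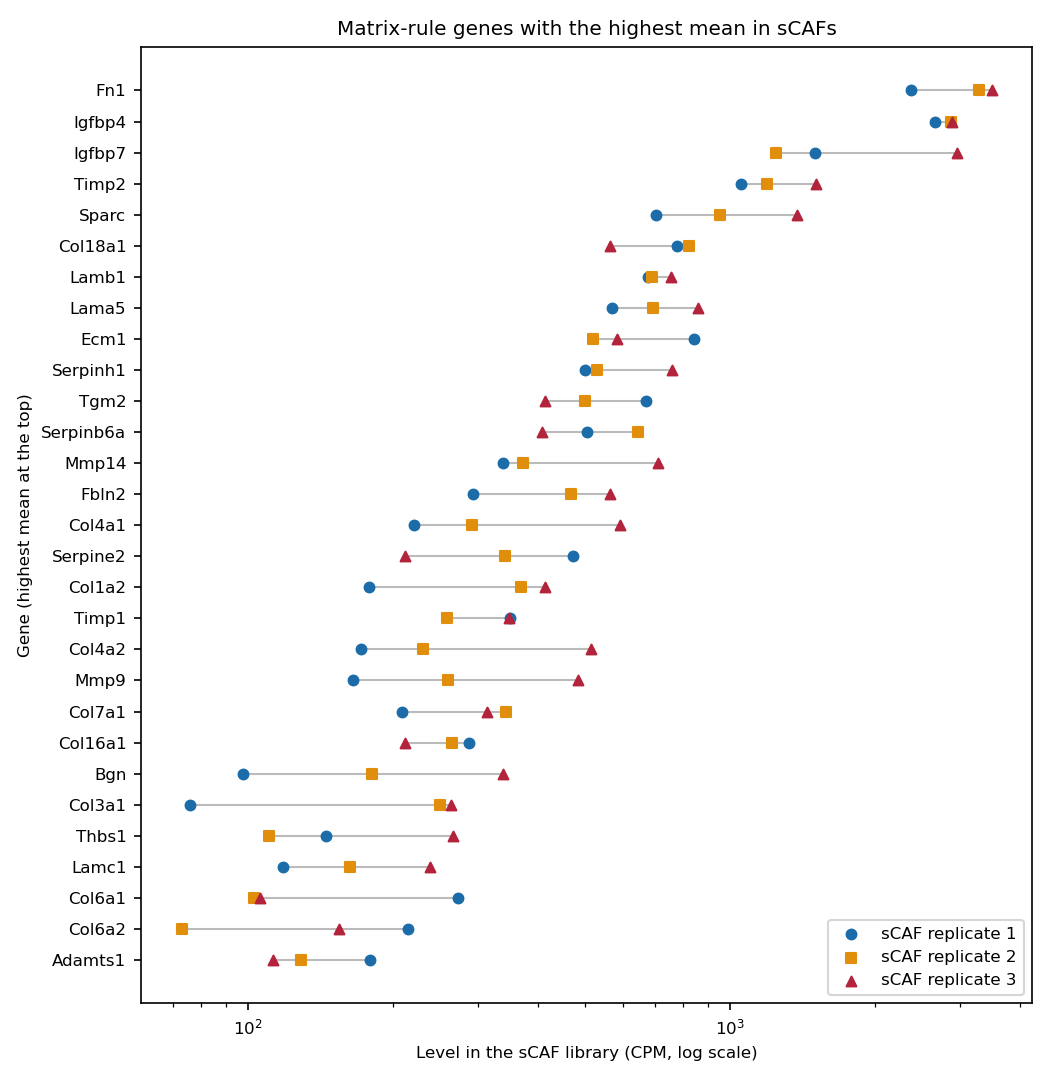
Matrix members (29 of the 30 highest) with the highest mean level in sCAFs, 1 row per gene, with the level in each of the 3 libraries as CPM on a log scale and a grey line from the lowest to the highest library. Fn1, Igfbp4 and Igfbp7 lie at the top, and Igfbp4 and Lamb1 have nearly coinciding points whereas those of Col3a1 and Bgn spread widely.

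Glycoproteins and proteoglycans were the largest group, at 4651, 5809 and 7108 CPM in replicates 1, 2 and 3 over 16 genes (27.4% of the members' counts), with 13 above the floor in all libraries. Fn1, which encodes the adhesive glycoprotein fibronectin, was the highest member of all, ranking 31 among the 12235 genes, with 2371, 3284 and 3491 CPM (3049 ± 596, SD, n = 3). Sparc, a collagen-binding glycoprotein, was at 703, 952 and 1379 CPM. Replicate 1 was the lowest for both genes and replicate 3 the highest. Ecm1, a secreted glycoprotein, went the other way round, with 843, 519 and 583 CPM and its highest value in replicate 1. Fbln2, a fibulin of elastic fibres and basement membranes, was at 293, 469 and 564 CPM. Thbs1, which encodes thrombospondin 1, was at 145, 111 and 267 CPM. Among the small proteoglycans that bind collagen, Bgn (biglycan) was at 97.7, 181 and 338 CPM and Dcn (decorin) at 39.9, 105 and 146 CPM, whereas Lum (lumican) had 2, 1 and 2 counts and did not pass the floor. Postn (periostin), a matricellular protein, was at 26.0, 47.8 and 91.6 CPM, and Tnc (tenascin C) at 44.4, 21.2 and 43.5 CPM. Bgn, Dcn and Postn were thus each lowest in replicate 1 and more than 3-fold higher in replicate 3, and Tnc was not.

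Basement membrane collagens and laminins came to 2943, 3517 and 4182 CPM over 19 genes (16.6% of the members' counts). Col18a1, the collagen whose end fragment is endostatin, was at 779, 821 and 564 CPM. Lamb1, the laminin β1 chain, was at 675, 688 and 756 CPM (706 ± 43.5, SD, n = 3), and Lama5, the α5 chain, at 569, 691 and 857 CPM. Lamc1, the γ1 chain, was lower, at 118, 163 and 239 CPM. A laminin trimer takes a chain of each kind; among α chains Lama5 was followed by Lama4 at 11.6 ± 6.43 CPM, and Lama1 had no count. Col4a1 was at 221, 292 and 592 CPM and Col4a2 at 172, 231 and 514 CPM, both with replicate 3 far above the others. The ratio of these partner chains, which share the start region printed above, hardly moved: it was 1.29, 1.26 and 1.15 in the 3 libraries. Of the other collagen IV chains, Col4a5 was at 12.5 ± 6.35 CPM, and Col4a3 and Col4a4 were at 0. Col7a1, the anchoring fibril collagen, was at 208, 344 and 314 CPM.

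Fibrillar collagens, which form the load-bearing fibres, were a minor part, at 423, 812 and 946 CPM over 11 genes (3.40% of the members' counts). Col1a2 was the highest of them, at 178, 369 and 414 CPM, followed by Col3a1 at 75.8, 250.4 and 264 CPM. Col1a1, whose product pairs with that of Col1a2 in collagen I, was at 46.2, 73.6 and 81.8 CPM. The common form of the collagen I protein holds more chains of Col1a1 than of Col1a2. In RNA, the counts of Col1a2 were 3.86, 5.02 and 5.06 times those of Col1a1, and protein was not measured. Col5a1, a regulator of fibre width, was at 87.0, 63.7 and 103 CPM, and its partner Col5a2 had 2 counts in each library and did not pass the floor.

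Collagen VI, which forms beaded microfilaments from 3 different chains, summed to 502, 211 and 352 CPM. Col6a1 was at 273, 103 and 106 CPM, Col6a2 at 215, 72.8 and 155 CPM, and Col6a3 at 13, 34.9 and 90.1 CPM. Col6a1 and Col6a2 were highest in replicate 1, where Col6a3 was lowest. The ratio of Col6a1 to Col6a3 was accordingly 21, 2.96 and 1.18, the widest movement among the 5 ratios that were computed. Among the remaining collagens, Col16a1, which associates with fibrils, was the highest, at 287, 265 and 212 CPM.

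**Figure D2:**
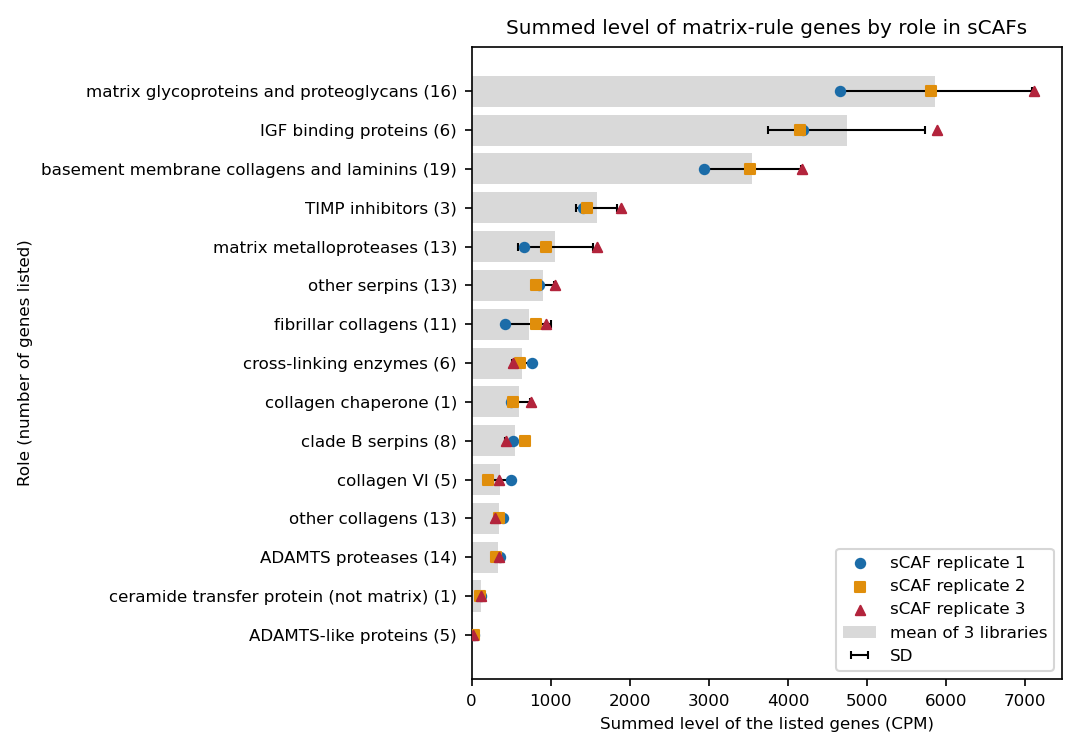
Summed level of the members by role, as CPM, with the number of listed genes in brackets. Bars start at 0 and show the mean of the 3 sCAF libraries, whiskers the SD and points the libraries; glycoproteins and proteoglycans, IGF binding proteins and basement membrane chains exceed fibrillar collagens.

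IGF binding proteins, which hold insulin-like growth factors in the extracellular fluid and matrix, summed to 4186, 4152 and 5889 CPM (22.2% of the members' counts), nearly all of it from Igfbp4 and Igfbp7. Igfbp4 was at 2664, 2875 and 2888 CPM (2809 ± 126, SD, n = 3), rank 36 of the table. Igfbp7, which binds insulin-like growth factors only weakly and is abundant in vessel walls, was at 1506, 1246 and 2955 CPM (1902 ± 921), with replicate 3 more than 2-fold above replicate 2. The other 4 members were low, with Igfbp3 at 10.4 ± 4.61 CPM. Igfbp7 overlaps the gene Polr2b (46.9 CPM) by 85 bases at its 3′ end on the opposite strand; whether counting used strand is not given in the sources used here.

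Among proteases, the 13 Mmp genes summed to 661, 939 and 1579.7 CPM. Mmp14, a membrane-bound collagenase that activates Mmp2, was at 339, 373 and 711 CPM. Mmp9, a gelatinase, was at 165, 260.2 and 484 CPM, and Mmp3 (stromelysin 1) at 52.9, 135 and 175 CPM. Mmp2 followed at 26.9, 57.7 and 62.3 CPM. All 5 Mmp genes with a mean of at least 20 CPM were lowest in replicate 1 and highest in replicate 3. ADAMTS proteases were low, at 363, 307 and 345 CPM in sum, led by Adamts1, which cuts large proteoglycans, at 179, 129 and 113 CPM.

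Inhibitors outweighed the Mmp genes in counts. Timp2, which both inhibits MMPs and takes part in the activation of Mmp2 by Mmp14, was at 1053, 1193 and 1513 CPM, and Timp1 at 349, 259 and 348 CPM. Timp3 was at only 10.8 ± 8.95 CPM. The summed Timp counts were 2.13, 1.55 and 1.19 times the summed Mmp counts in replicates 1, 2 and 3. Among secreted serpins, Serpine2 (protease nexin 1, a thrombin inhibitor) was at 473, 342 and 212 CPM, highest in replicate 1 and lowest in replicate 3. Serpinh1, which encodes the collagen chaperone HSP47 of the endoplasmic reticulum and is no protease inhibitor, was at 499.9, 529.6 and 757 CPM. Serpinb6a, an intracellular protease inhibitor, was at 504, 643 and 408 CPM. Counts of the Serpina3 genes and of the Serpinb6 and Serpinb9 genes are uncertain, because these are clusters of near-identical copies among which reads can be split.

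Cross-linking enzymes summed to 769, 611 and 518 CPM, most of it from Tgm2 (transglutaminase 2) at 669.8, 501 and 414 CPM. Lysyl oxidases were low: Loxl3, the highest, was at 48.9, 41.0 and 30.8 CPM, and Lox at 7.17, 16.7 and 23.3 CPM. Loxl3 overlaps Htra2 (193 CPM) by 1297 bases on the opposite strand, and Tgm2 overlaps Rprd1b (12.1 CPM) by 15896 bases, so part of these counts is uncertain where strand was not used. The same holds for Thbs3 beside Mtx1, at 41.4 ± 6.03 and 107 CPM, and for Col18a1 beside Slc19a1, the latter at 43.6 CPM.

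The spread of matrix members between the sCAF libraries was set beside that of all genes. Among the 56 members with a mean of at least 20 CPM, the median SD of log2(CPM + 1) was 0.52, against 0.23 over all 6018 genes with such a mean. This is a description, with no test. Of these 56, 35 (62.5%) were highest in replicate 3 and 33 (58.9%) lowest in replicate 1, where the shares over all genes were 41.6% and 33%. The 5 members with the largest spread were Col6a3 (SD of 1.35), Col15a1 (1.18), Serping1 (1.07), Sparcl1 (1.07) and Col3a1 (1.01). Serping1, the C1 inhibitor, was at 39.5, 103 and 173 CPM, Col15a1, a basement membrane collagen, at 8.07, 15.9 and 45.0 CPM, and Sparcl1, a relative of Sparc, at 31.8, 45.5 and 134 CPM. All 5 were lowest in replicate 1 and highest in replicate 3. The 5 steadiest were Col4a3bp (0.04), Igfbp4 (0.07), Lamb1 (0.09), Serpina3g (0.17) and Thbs3 (0.21).

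Roles differed in which library was high. All 5 fibrillar collagens and all 5 Mmp genes at 20 CPM or more were highest in replicate 3, as were 7 of 11 basement membrane genes and 8 of 11 glycoproteins and proteoglycans. All 3 cross-linking enzymes at that level, Tgm2, Loxl3 and Loxl4, were highest in replicate 1 and lowest in replicate 3. Over all genes at that level, 29.7% were highest in replicate 1 and 34.1% lowest in replicate 3. The cross-linking enzymes below that level did not share this order. Lox and Loxl2 (8.52, 14.4 and 20.3 CPM) were lowest in replicate 1 and highest in replicate 3, and Loxl1 was lowest in replicate 1. In sum the pericyte or smooth muscle list moved with the first set, at 109, 152 and 588 CPM, though Acta2 did not. The sum of the 7 macrophage genes was also highest in replicate 3. Cd14 led it, at 33.2, 34.9 and 84.1 CPM, whereas C1qb was highest in replicate 1, at 7.17, 3.79 and 4.50 CPM. The part of both lists in the spread of the members was not tested.

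**Figure D3:**
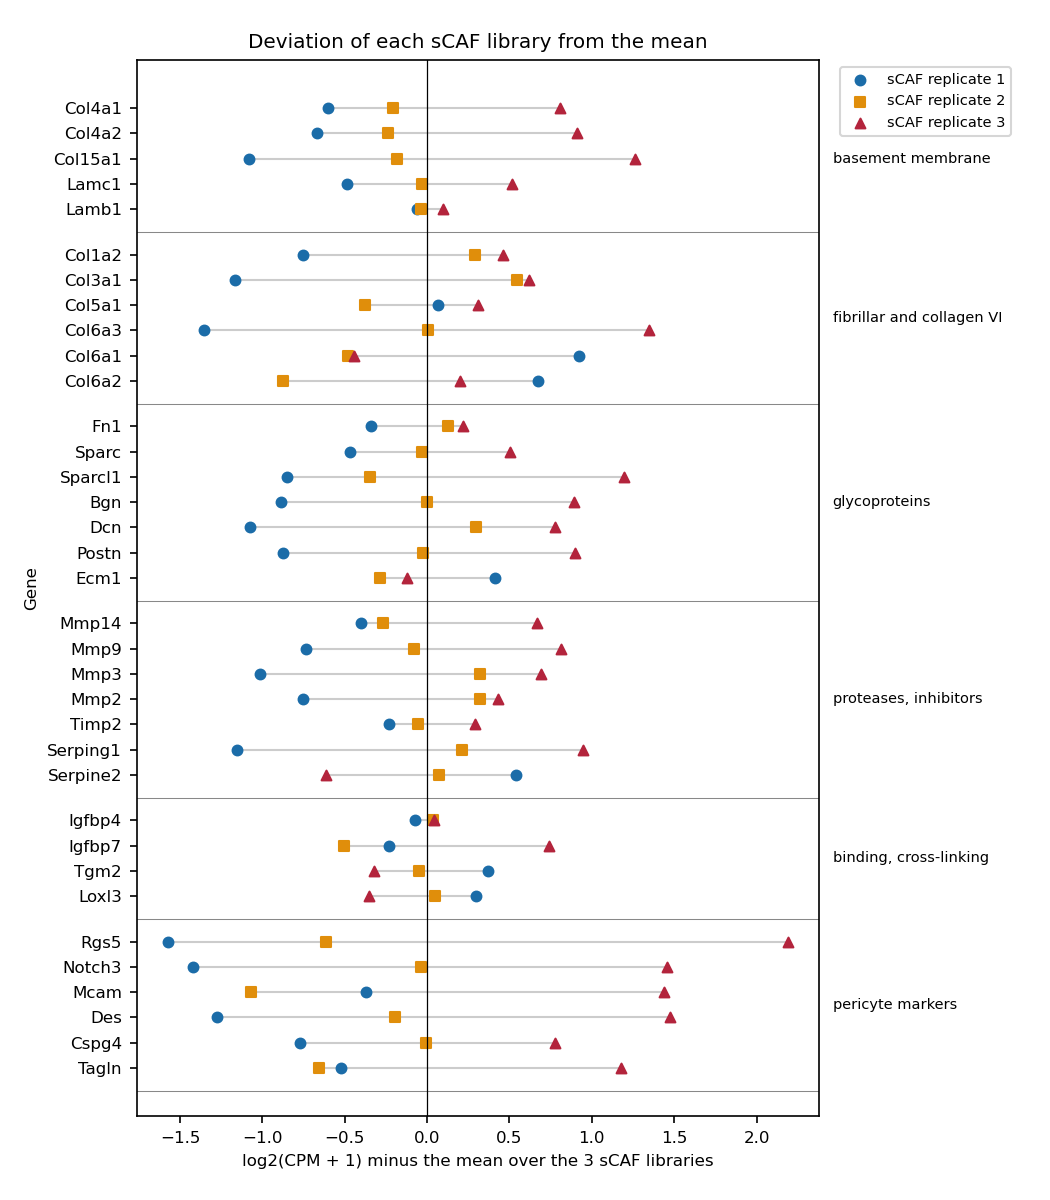
Deviation of each sCAF library from the mean of the 3 libraries, on the log2(CPM + 1) scale, for members chosen by role and for 6 of the 8 pericyte or smooth muscle markers, 1 row per gene. Acta2 and Myh11 are not plotted. Replicate 3 lies to the right for collagen IV, fibrillar collagens, Mmp genes and the pericyte markers, and to the left for Tgm2, Loxl3 and Serpine2.

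Other matrix genes outside the symbol rule were followed on 4 lists. Of 39 further structural genes, 36 were listed and 24 lay above the floor in all libraries, with a sum of 7567, 6689 and 10066 CPM. Spp1, which encodes the secreted phosphoprotein osteopontin, led with 4355, 3780 and 5717 CPM and exceeded Fn1 in every library. All 22 listed genes of collagen assembly and processing were above the floor (4774, 4059 and 5098 CPM in sum), led by Bmp1, the procollagen C-proteinase, and P4hb, a subunit of prolyl hydroxylase, with means of 1143 and 1054 CPM. Of 22 listed matrix receptors, 19 were above the floor. Lrp1, an endocytic receptor, and Itga3, the integrin α3 chain, had means of 958 and 851 CPM.

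The second table allowed the members to be set against NK cells of the same kind of tumour. Of the 134 members, 39 were also listed in the NK table, 19 of them among the 30 highest, and the other 95 have no NK value. In edgeR's quasi-likelihood test 33 of the 39 could be tested. After Benjamini-Hochberg adjustment over 8027 genes, 31 of the 33 were called, 23 higher and 8 lower in sCAFs, where 70.5% of all genes tested were called, 34.6% higher and 35.9% lower. The members' median log2 fold change was 4.90 and that of all genes −0.012. The cell types were counted in separate tables, so cell type and table cannot be told apart. Listing in both tables also selects the members: most of the collagens, laminins and Mmp genes have no row for NK cells. The count filter selects again, since a member that passed it only through the group where it is high had to differ. Serpinh1, Serping1 and Mmp9 had means of 0.50, 1.0 and 2.25 counts per tumour NK library. Serpinb9b, Serpinb1a and Serpinb9 had means of 0.67, 3 and 7 counts per sCAF library. The counts of calls and the median are therefore descriptions of the members tested.

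Several structural members that were abundant in sCAFs were near the floor in tumour NK cells. Fn1 was at 4.56, 7.02, 5.98 and 0 CPM in tumour NK replicates 1 to 4, which is 0.144% of its sCAF mean. Its edgeR log2 difference was 9.42. Sparc was at 8.37, 2.81, 0.544 and 6.10 CPM and Igfbp7 at 11.4, 1.40, 3.81 and 5.23 CPM there, with log2 fold changes of 7.86 and 8.34. No NK library approached an sCAF library for these genes, and the low NK counts leave the folds imprecise. Fn1, Sparc and Igfbp7 had 22, 21 and 29 counts over the tumour NK libraries together. These levels were too low to pass the count filter in NK cells. The 3 genes passed it through the sCAFs, so their calls were fixed by the filter and are no evidence. The same holds for members such as Timp1, Col7a1, Col3a1 and Bgn, with 13, 10, 16 and 25 counts there. Serpinh1 had 2 counts in all tumour NK libraries together and was 1449-fold higher in sCAFs, with a counting interval of 401 to 11972. The other structural and remodelling members called higher ran from Mmp9 (7.34), Col7a1 (7.11) and Timp1 (6.91) over Lamb1 (6.49), Col4a1 (6.05), Col3a1 (5.89), Lamc1 (5.34), Bgn (5.32) and Col1a2 (5.06) down to Adamts6 (1.15). The call of Adamts6 (adjusted p = 0.0099) was lost without sCAF replicate 3 (0.89, adjusted p = 0.0501) and with a 2-fold minimum (adjusted p = 0.325).

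Some members had clear levels in both cell types. Igfbp4 was at 29.7, 14, 13.1 and 27.9 CPM in tumour NK replicates 1 to 4, 0.753% of its sCAF mean, with a log2 fold change of 7.05. Timp2 was at 60.8, 56.1, 44.1 and 67.1 CPM (4.55% of the sCAF mean), with a log2 fold change of 4.47 (SE 0.19, adjusted p = 1.13e-15). Tgm2, Ecm1 and Serpine2 were at means of 13.1, 21.9 and 15.3 CPM in tumour NK cells, with log2 fold changes of 5.23, 4.90 and 4.48. Col4a3bp, the ceramide transfer protein, did not differ by the test (114 ± 3.17 against 130 ± 18 CPM, log2 fold change −0.17, SE 0.16, adjusted p = 0.369), nor did Col20a1 (9.48 against 13.2 CPM, −0.44, SE 0.33, adjusted p = 0.238).

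The 8 members lower in sCAFs were 5 serpins, Adamts14, Adamts10 and Col11a2. Serpinb6b was at 7.62, 9.86 and 10.5 CPM in sCAFs against 820.1 to 1084 CPM in tumour NK cells (−6.67, SE 0.23). Serpinb9, an inhibitor of granzyme B that shields cytotoxic cells from their own enzyme, was at 4.48, 5.31 and 3.00 CPM against 343 to 417 CPM (−6.44). Serpinb9b had 2 counts over the 3 sCAF libraries and was 563-fold higher in tumour NK cells, with a counting interval of 155 to 4651. Serpinb1a (−3.44) and Serpina3g (−2.75) followed. Adamts14, a procollagen N-proteinase, was at 98.6, 88.0 and 57.1 CPM in sCAFs against 457 ± 84.5 CPM (SD, n = 4) in tumour NK cells (−2.47), and Adamts10, known from microfibrils, at 63.1 against 211 CPM (−1.75). Col11a2, a chain of cartilage fibrils, was at 13.9 against 36.0 CPM (−1.36), a call lost with a 2-fold minimum (edgeR adjusted p = 0.101).

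**Figure D4:**
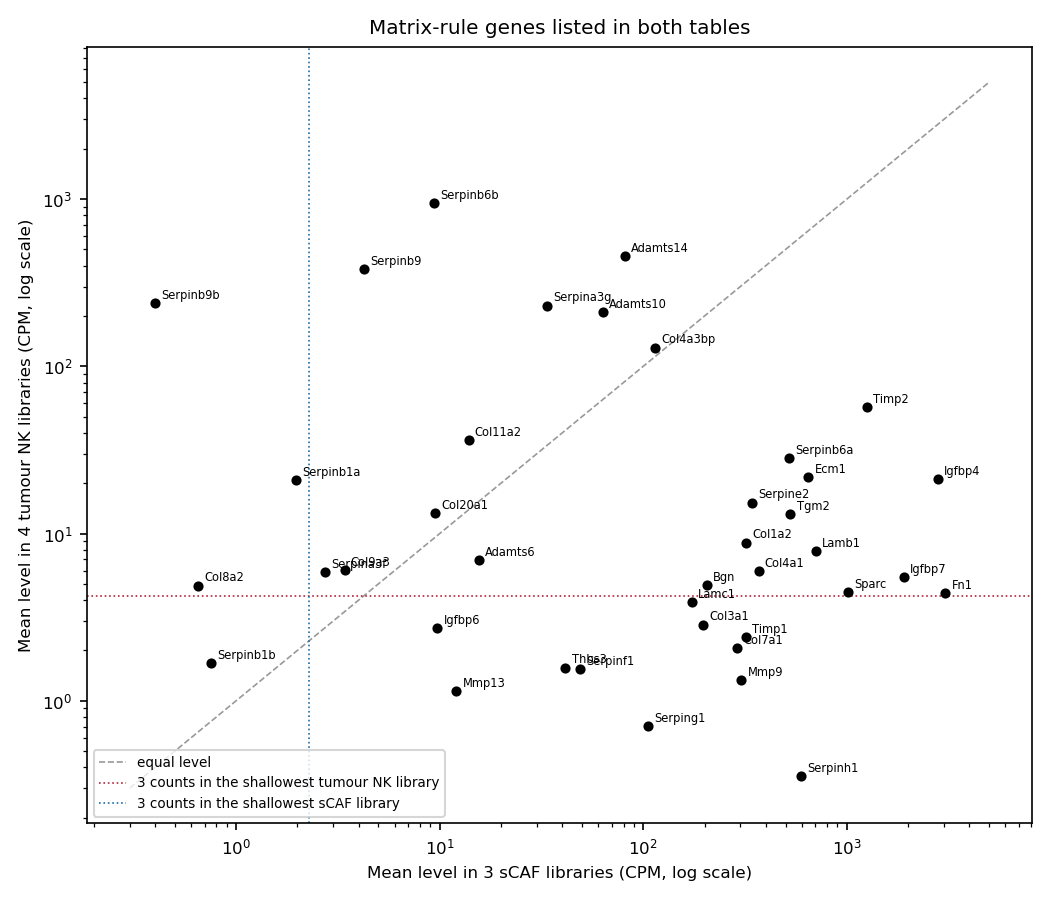
Mean level of the 39 members listed in both tables, in 3 sCAF libraries (horizontal axis) and 4 tumour NK libraries (vertical axis), as CPM on log scales, with the line of equal level and the 3-count floor of the shallowest library of each kind. Structural members such as Fn1 and Sparc lie at the right near the NK floor, Serpinb6b, Serpinb9 and Serpinb9b at the upper left, and Col4a3bp close to the line.

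On the 4 lists of other matrix genes, the genes also tested against tumour NK cells were read against the 34.6% called higher and 35.9% called lower over all genes. Called higher in sCAFs were 5 of 6 structural genes (1 lower), 11 of 14 genes of collagen assembly, 5 of 10 proteases (2 lower) and 8 of 13 receptors (3 lower). The 7 of 10 proteases called in either direction lay near the 70.5% over all genes, and the 11 of 14 assembly genes not far from it. Lrp1, Efemp2, Tgfbi and P4ha2 were at means of 1.60, 2.15, 1.85 and 2.34 CPM in tumour NK cells. Such genes passed the count filter through the sCAFs and had to differ. The counts of calls therefore only describe the genes tested. Spp1 was at a mean of 51.4 CPM in tumour NK cells and was 6.49 higher on the log2 scale in sCAFs (edgeR adjusted p = 1.71e-11).

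Within the NK table, 44 genes match the symbol rule, 5 of them absent from the sCAF table, and 21 had enough counts to be tested in the NK groups. The comparison asks how NK cells inside tumours differ from those of the spleen. Both comparisons with the tumour use the same 4 tumour libraries and are given side by side. Against tumour-bearing spleens, 9 members were higher and 4 lower in tumour NK cells of 21 tested (edgeR, Benjamini-Hochberg over 8471 genes), where 29% of all genes were called, 15.8% higher and 13.2% lower. Against healthy spleens, 9 were higher and 5 lower, where 30.5% of all genes were called, 16.5% higher and 14% lower. The median log2 fold change of the members was 0.26 and 0.29, against 0.0014 and 0.016 over all genes. Tgm2, Serpine2 and Igfbp4 had means of 1.25, 3.25 and 3.50 counts per library in tumour-bearing spleens and 18, 19.5 and 26.3 in tumours. Serpinb1a, Ecm1 and Col1a2 were low as well, with 24, 36 and 29 counts over the tumour-bearing spleens and 107, 109 and 48 over the tumours. With only the 2 spleen groups in the fit, 15 members passed the count filter in place of 21. Tgm2, Serpine2, Igfbp4, Serpinb1a, Ecm1 and Col1a2 were too low in spleens to pass it there. They passed it through the tumour libraries, which ties their calls to the filter. The counts of calls therefore describe the members tested. With upper-quartile scaling the share of higher among all called genes moved from 54.5% to 41.6% against tumour-bearing and from 54.2% to 42.4% against healthy spleens, with the median of all genes shifted by −0.099 and −0.10 on the log2 scale, and no member changed direction between called values. The spleen libraries themselves split on the second principal component (15.31% of the variance): tumour-bearing replicates 1 and 2 and healthy replicate 1 lay at 12.55 or above, the other 4 at −6.28 or below.

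Intracellular serpins were among the members called higher in tumours. Serpina3g, an inhibitor of cysteine cathepsins, was at 198, 247, 232 and 247 CPM in tumour NK cells, at 58.3, 39.2, 42.2 and 83.0 CPM in tumour-bearing spleens and at 26.8, 20.3 and 28.1 CPM in healthy spleens. The 3 groups did not overlap. The log2 difference was 2.18 (SE 0.21, edgeR adjusted p = 3.52e-07) against tumour-bearing and 3.42 (SE 0.26, adjusted p = 3.72e-08) against healthy spleens. Serpinb6b was at 964, 1084, 820.1 and 938 CPM in tumour NK cells, 626, 545, 310.1 and 368 CPM in tumour-bearing and 465, 337 and 266 CPM in healthy spleens, with every tumour library above every spleen library (1.17 and 1.64). Serpinb9 was at 343, 417, 397 and 377 CPM in tumours, 238, 245, 198 and 219.8 CPM in tumour-bearing and 202, 226 and 149.6 CPM in healthy spleens (0.89 and 1.19), again without overlap between tumour and spleen. Serpinb1a, an inhibitor of neutrophil proteases, was at 16.8 to 22.8 CPM in tumours and at 2.54 to 8.93 CPM in all spleens (2.58 and 2.27).

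Serpinb9b differed from its relative. It was at 224, 232, 178 and 321 CPM in tumour NK cells, 242, 324, 241 and 292 CPM in tumour-bearing spleens and 129, 133 and 85.1 CPM in healthy spleens. Tumours and tumour-bearing spleens overlapped (−0.085, SE 0.17, adjusted p = 0.746), and both lay above healthy spleens.

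Secreted and cross-linking members were low in NK cells from spleens. Tgm2 was at 13.7, 8.42, 19.0 and 11.3 CPM in tumour NK cells, and 5 counts in all were found in the 4 tumour-bearing spleens. Healthy spleens held 5 counts as well, 4 of them in replicate 1. The log2 fold changes were 4.10 and 3.33. Igfbp4 was at 0 to 5.07 CPM in all spleens against 13.1 to 29.7 CPM in tumours (3.33 and 2.96). Serpine2 was at 0 to 3.11 CPM in spleens and at 18.3, 16.8, 17.4 and 8.71 CPM in tumours (2.98 and 3.85), and Ecm1 at 3.11 to 11.8 CPM in spleens and 16.0 to 25.3 CPM in tumours (2.07 and 1.65). All spleen libraries lay below all tumour libraries for these 4 genes, but near the floor, so the folds are imprecise. In spleens these genes were too low to pass the count filter. They passed it through the tumour libraries, so their calls and the lack of overlap were tied to the filter. Rprd1b, which overlaps Tgm2, was at 14.3 CPM in tumours and 18.2 CPM in tumour-bearing spleens. Col1a2 was called against tumour-bearing spleens (8.83 ± 4.08 against 4.47 ± 2.67 CPM, 1.16, edgeR adjusted p = 0.0468) and lost the call under 12 of 17 alternatives, the leaving out of tumour replicates 1, 3 or 4 and of spleen replicates 1, 3 or 4 among them.

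Sums of several marker lists of other cells separated tumour from spleen libraries, in both directions. Neutrophil genes (3 of 6 listed) summed to 55.5 to 153 CPM in tumour NK libraries, and to 0.698 to 11.9 CPM in tumour-bearing and 0.563 to 8.93 CPM in healthy spleens. Macrophage genes (7 of 9 listed) summed to 28.7 to 139 CPM in tumours, against 14 to 21.4 CPM and 5.36 to 14.9 CPM in the spleens, where 2 and 3 of the 7 genes had no count. Epithelial genes (Epcam and Cdh1, 2 of 11 listed) summed to 25.0 to 51.0 CPM in tumours and to at most 3.57 CPM in any spleen library. Cdh1 set this sum, with a mean of 39.1 CPM in tumours against 3.77 CPM for Epcam. The mean of Cdh1 in the sCAF libraries was 22.5 CPM. Pecam1, the single endothelial gene of 7 that was listed, was at 130.5 to 185 CPM in tumours and at 48.2 to 93.0 CPM in spleens. The pericyte genes (Mcam and Tagln, 2 of 8 listed) were lower in tumours, at 16.3 to 33.7 CPM against 45.8 to 89.6 CPM in spleens. Mcam set this sum, with means of 21.7, 53.9 and 78.9 CPM in tumours, tumour-bearing and healthy spleens. T cell genes (3 of 5 listed) summed to 59.2 to 98.1 CPM in tumours, 106 to 144 CPM in tumour-bearing and 50.0 to 79.3 CPM in healthy spleens. Of the fibroblast list, 4 of 12 genes were listed, and their sum was set by Thy1 and S100a4, which NK cells held at means of 739 and 977 CPM in tumours. NK markers (6 of 6 listed) summed to 16406 to 20230 CPM in tumours against 24539 to 28927 CPM in spleens. The part of these other cells, and of the collagenase step that tumours alone received, in the member values was not tested, and tissue and digestion cannot be told apart.

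Members that were lower in tumours were led by Lamb1. It was at 8.37, 8.42, 7.61 and 6.97 CPM in tumour NK cells, 31.9, 43.4, 32.5 and 20.9 CPM in tumour-bearing spleens and 33.9, 31.0 and 24.0 CPM in healthy spleens, and no tumour library reached a spleen library. The edgeR test gave log2 differences of −1.91 (SE 0.25, adjusted p = 8.64e-06) and −1.69 (SE 0.28, adjusted p = 9.91e-05) against tumour-bearing and healthy spleens. Adamts14 was at 392, 497, 557 and 381 CPM in tumours, 669.7, 929, 1003 and 904 CPM in tumour-bearing and 1179, 1142 and 1095 CPM in healthy spleens, with no overlap of tumour and spleen (−0.82 and −1.11). Adamts10 was at 182 to 248 CPM in tumours, 250.2 to 439.8 CPM and 493 to 550.3 CPM in the spleen groups (−0.68 and −1.09), and Col11a2 at 22.8 to 51.9, 46.6 to 85.1 and 91.8 to 100.1 CPM (−0.94 and −1.25). Against tumour-bearing spleen replicates 1 and 2 alone, Adamts10 (−0.41, adjusted p = 0.122) and Col11a2 (−0.67, adjusted p = 0.0952) lost their calls. The call of Serpina4-ps1 against healthy spleens (−1.17, adjusted p = 0.0476) was lost under 8 of 14 alternatives. Timp2 was not called in either comparison, with overlapping groups, means of 57.0, 64.8 and 55.2 CPM in tumours, tumour-bearing and healthy spleens, and log2 fold changes of −0.087 (SE 0.20) and 0.19 (SE 0.22) for tumours against each spleen group.

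**Figure D5:**
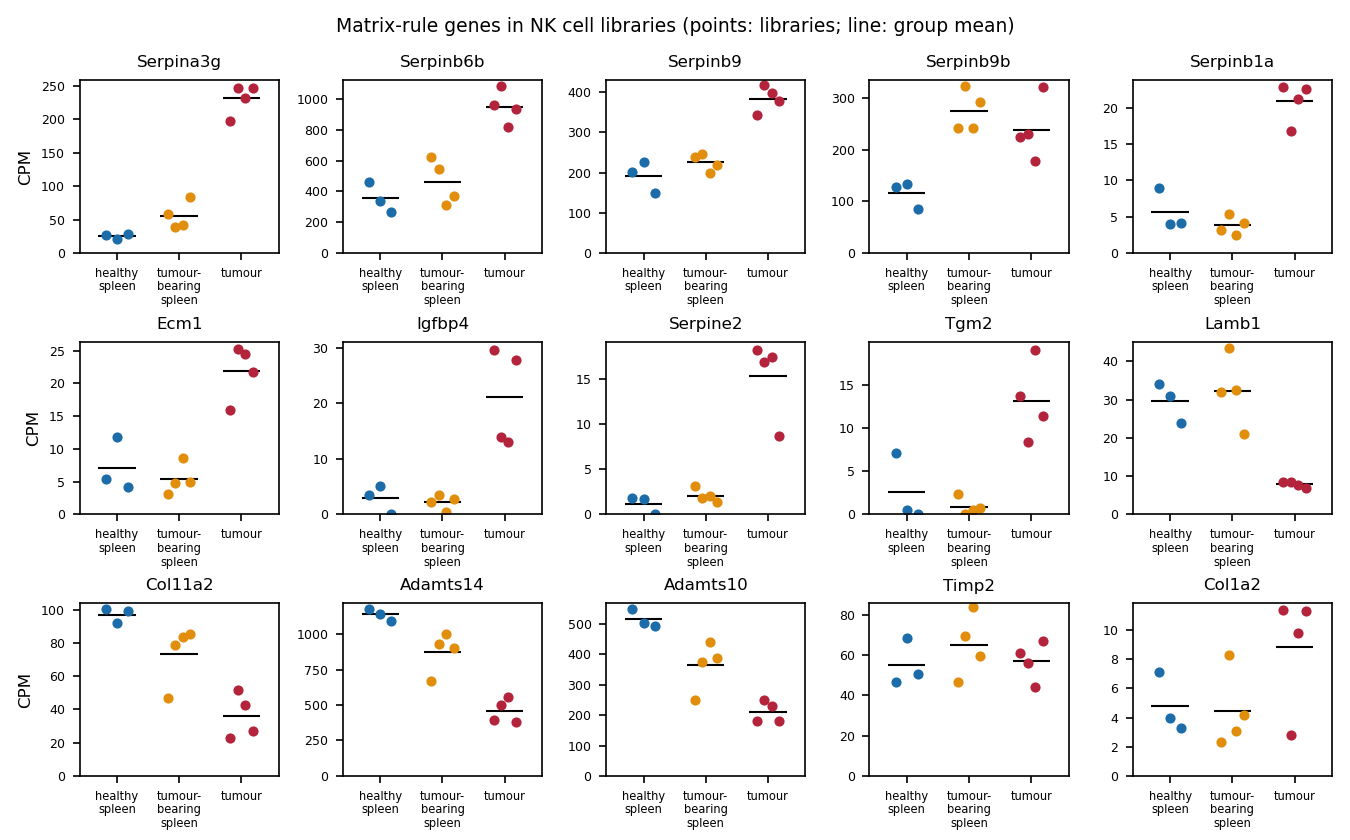
Level of 15 members in the NK libraries as CPM, 1 panel per gene with its own axis from 0; points are libraries and lines group means for healthy spleens (3), tumour-bearing spleens (4) and tumours (4). Serpina3g, Serpinb1a and Tgm2 are high in tumours, Lamb1 and Adamts14 low, Serpinb9b is low in healthy spleens alone, and Timp2 overlaps throughout.

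Between the spleen groups, 2 of 21 members were higher in tumour-bearing mice and 0 lower, where 1.58% of all genes were called, 1.23% higher and 0.354% lower. DESeq2 also called 0 lower, and 6 members had an unadjusted p under 0.05 in edgeR. Serpinb9b rose by 1.34 on the log2 scale (SE 0.20, edgeR adjusted p = 0.000725), and no tumour-bearing library overlapped a healthy one. Serpina3g was 1.24 higher (SE 0.27, adjusted p = 0.0225), a call lost under 6 of 15 alternatives, among them leaving out any healthy replicate or tumour-bearing replicate 1. With the side of the spleen libraries on the second principal component as a block, Adamts10 (−0.37, adjusted p = 0.049) and Serpina4-ps1 (−1.56, adjusted p = 0.00216) were lower as well.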

How the data were processed

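Libraries of 3′ ends of polyadenylated RNA were sequenced from 3 sCAF samples, 4 tumour NK samples, 4 NK samples from spleens of tumour-bearing mice and 3 from healthy spleens, grouped by their labels. The authors deposited raw counts per gene in one table for sCAFs and one for NK cells. The submitters' processing notes name bcl2fastq, STAR 2.4.2a, HTSeq and the build mm10. Whether molecular identifiers were used, and the counting strand, are not given in the sources used here.

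Members and gene lists were chosen with earlier results of these data known. Genes were placed on GRCm38 with GENCODE. CPM used the total over listed genes. Contrasts were fitted with edgeR 4.0.16 (TMM, filterByExpr, quasi-likelihood test, adjusted p threshold of 0.05 by Benjamini-Hochberg over all genes) in R 4.3.3 with limma 3.58.1, sCAFs against tumour NK cells on genes in both tables and the NK groups in one fit of 11 libraries. Python 3.11.15, pandas 2.3.3, numpy 2.4.6, scipy 1.17.1 and matplotlib 3.10.9 made the remaining values and plots, and the fits were tested on simulated data. Totals were 559688 to 2230475 counts per library, which set the floors.

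Named are the 30 highest members and the highest of each family, members called in a contrast (at most the 12 largest per direction) and those of the 30 tested there, the 5 widest and 5 steadiest, at most 5 with no count, and the 10 highest genes of other lists. Members named outside this rule, such as further chains of a trimer or family, were chosen after their values were seen. Of all members, 1 of the 30 highest members is not reported here and is counted only in sums and counts. Alternatives were other scalings, DESeq2 1.42.0, no filter on low counts, a 2-fold minimum, only the groups compared, a replicate block, and leaving out each library. The comparisons that split the spleen libraries by their principal component or number were chosen after seeing the data.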

Additional observations from a re-analysis of the deposited data

Results flagged for a closer look

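Of 42 groups of 4 libraries checked, 3 held a library far from the others, where chance flags about 1 in 20. Adamts6 was at 9.15 CPM in tumour-bearing spleen replicate 3 (18 counts), with the others at 14.3 to 14.8 CPM. The pseudogene Serpina4-ps1 was at 13.2 CPM in tumour-bearing spleen replicate 1 (17 counts), with the others at 4.75 to 5.58 CPM. Serpine2 was at 8.71 CPM in tumour NK replicate 4 (10 counts), below the others at 16.8 to 18.3 CPM and above every spleen library.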

How the results depend on the processing

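No called value changed direction under any alternative. Fold changes were recomputed for all tested members, named or not. Of these, 425 kept their side of the threshold and 4 lost it for sCAFs against tumour NK cells. The numbers were 337 and 19 for tumour against tumour-bearing spleen NK cells, 278 and 14 (2 gained) against healthy spleens, and 293 and 7 (3 gained) between the spleen groups. A 2-fold minimum left 1323 genes higher and 1477 lower in sCAFs, 334 and 57 (1 member lower) for tumours against tumour-bearing spleens, 385 and 90 (1 member lower) against healthy spleens, and 6 and 2 (0 members higher) between spleens, a smaller count by its construction. Against tumour-bearing spleen replicates 1 and 2 only, 546 genes and 2 members were lower in tumours, and the cause was not tested. With only the 2 spleen groups in the fit, 1 member was higher in tumour-bearing mice. With the side of the spleen libraries as a block, 443 genes were higher and 248 lower, with 2 members lower. This was chosen after seeing the data.

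Leaving out 1 library at a time gave a share of counts of 1.93 to 2.29%, and 55 to 57 members at 20 CPM or more. Members higher and lower numbered 22 to 25 and 8 to 8 in sCAFs against tumour NK cells (2628 to 2777 and 2655 to 2894 genes), 8 to 9 and 4 to 4 for tumours against tumour-bearing spleens (1055 to 1258 and 814 to 1251 genes), 9 to 10 and 4 to 5 against healthy spleens (1056 to 1565 and 782 to 1406 genes), and 1 to 2 and 0 to 1 between spleens (35 to 100 and 7 to 25 genes). Without ribosomal protein genes in the total, 3 levels moved by more than their SD: Col16a1 to 295.6, Igfbp4 to 3260.4 and Lamb1 to 819.6 CPM.

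Same-numbered samples did not deviate together in every pair (correlations of −0.0723 to −0.00731 for sCAFs and tumour NK cells, −0.0491 to 0.307 and −0.219 to 0.0528 for tumours against the spleen groups, and −0.358 to 0.51 between spleens), so the numbers were not taken as pairs. For tumours against tumour-bearing spleens, replicates 2 and 4 correlated best with their own number (0.307 and 0.225), as did replicate 1 between spleens (0.51), a hint from the data and not from the design. A replicate block gave 22 members higher and 8 lower in sCAFs, 8 and 4 against tumour-bearing spleens, 9 and 4 against healthy spleens, and 2 and 0 between spleens, where 18 genes were lower in place of 30. With the block, Adamts6 in sCAFs against tumour NK cells (0.90, edgeR adjusted p = 0.0672), Col1a2 against tumour-bearing spleens (1.16, adjusted p = 0.0713) and Serpina4-ps1 against healthy spleens (−1.03, adjusted p = 0.0949) lost their calls. Members near the 3-count floor are limited by depth.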

Other observations

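Receptors for matrix proteins were measured in the same NK libraries. Of 11 tested, Itgb3, Cd44, Cd47, Itgb1 and Itgav were higher in tumour NK cells against both spleen groups, which were compared with the same tumour libraries. Over all genes, 15.8% were called higher against tumour-bearing and 16.5% against healthy spleens. Itgb3, the integrin β3 chain, had mean levels of 310.2 CPM in tumours, 44.5 CPM in tumour-bearing and 20.2 CPM in healthy spleens, with log2 fold changes of 2.92 (SE 0.16, edgeR adjusted p = 6.12e-11) and 4.20 (SE 0.20, adjusted p = 2.12e-11). Itgav, the αv chain that pairs with β3, had means of 41.1, 27.6 and 19.6 CPM (0.68 and 1.33). Itgb1, the β1 chain, had means of 398, 279 and 329 CPM (0.64 and 0.49). Itgb3, Cd44 and Itgav were named after their values were seen. Spp1, whose product osteopontin is a ligand of these integrins and was among the leading matrix genes of the sCAFs, had means of 51.4, 26.1 and 3.93 CPM in the NK groups (1.09 and 3.96).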
